A study of Mus musculus with 40 samples.

Results

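The 7 genes described here encode subunits of the GABA-A receptor. They were chosen by symbol, as 4 α subunits (Gabra2, Gabra3, Gabra4 and Gabra5), 2 β subunits (Gabrb1 and Gabrb2) and the δ subunit (Gabrd), and all 7 were found among the 41388 genes of the count tables. RNA was sequenced from the forebrain, called cortex in the labels, of 2 mouse lines at 21 d after birth, RBP4-TRAP and VGAT-TRAP. Both lines carry the same Cre-dependent reporter, EGFP fused to the ribosomal protein Rpl10a in the Rosa26 locus, so that the ribosomes of cells with Cre can be captured by their tag (TRAP, translating ribosome affinity purification). In RBP4-TRAP mice (strain Rbp4 TRAP in the labels) the transgene Rbp4-cre KL100 drives Cre, and the study used it for layer 5 pyramidal cells. In VGAT-TRAP mice (strain Vgat TRAP) Cre is driven from Slc32a1, the gene of the vesicular GABA transporter VGAT, in any GABAergic neuron. Each line had 5 replicates, each a pool of 2 to 3 forebrains of both sexes, and each pool gave 4 fractions, making 8 groups of 5 and 40 libraries. These were the whole-cell homogenate (WCH), TRAP from that homogenate, the synaptoneurosome fraction (SNF), which is enriched for pinched-off synaptic endings, and TRAP from that fraction (SynapTRAP, ST).

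GABA-A receptors are chloride channels opened by GABA, and they carry most fast inhibition in the forebrain. Each receptor is a ring of subunits, most often of α, β and γ kinds, and δ can take the place of γ. The α subunit sets much of the receptor's pharmacology and place in the cell: receptors with Gabra2 or Gabra3 products are common at synapses, while those with Gabra5 or Gabrd products are known for tonic inhibition outside the synapse. In the forebrain the δ subunit is found with the α4 subunit, and the β subunits form part of the GABA binding site.

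In the coordinates of the files, which are those of GRCm38, 3 of the genes lie in a cluster on chromosome 5. Gabra2 spans chr5:70961057-71095849 and Gabra4 chr5:71569734-71658308, both on the minus strand, and Gabrb1 spans chr5:71699932-72138389 on the plus strand. Gabra5 lies at chr7:57407690-57510009 (minus), Gabrb2 at chr11:42419757-42629028 (plus), Gabra3 at chrX:72432681-72656848 (minus) and Gabrd at chr4:155384980-155398112 (minus). Reads were counted over all exons of a gene, UTRs included, with summed lengths of 2392 bases for Gabra2, 3924 for Gabra3, 4123 for Gabra4, 2653 for Gabra5, 3089 for Gabrb1, 6246 for Gabrb2 and 2875 for Gabrd. GENCODE M21 extends Gabra2 by 3460 bases at its 3′ end, and Gabrb1 by 41819 bases upstream and 10648 downstream. Levels of these genes, also per length, are therefore uncertain. Gabra5 shares 148 exonic bases with Gm9962 on the other strand, and the counting is not stated to use strand.

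RefSeq promoter windows (GRCm38.p6, 250 bases before to 50 after a start) were found for 6 of the 7 genes, all but Gabrd. Shown 5′ to 3′ are those of Gabra5 and Gabra2, the genes that differed most towards RBP4 in TRAP, and that of Gabra4, a neighbour of Gabra2 with no such difference. Capitals mark GGGCGG on either strand, the core of a GC box.
Gabra5, chr7:57510010-57510309, minus strand: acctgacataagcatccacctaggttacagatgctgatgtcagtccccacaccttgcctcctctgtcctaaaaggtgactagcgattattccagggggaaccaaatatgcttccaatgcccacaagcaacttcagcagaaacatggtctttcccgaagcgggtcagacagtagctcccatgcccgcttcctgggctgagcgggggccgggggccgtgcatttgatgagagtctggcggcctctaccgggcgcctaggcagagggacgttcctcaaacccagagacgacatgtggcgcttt
Gabra2, chr5:71095800-71096099, minus strand: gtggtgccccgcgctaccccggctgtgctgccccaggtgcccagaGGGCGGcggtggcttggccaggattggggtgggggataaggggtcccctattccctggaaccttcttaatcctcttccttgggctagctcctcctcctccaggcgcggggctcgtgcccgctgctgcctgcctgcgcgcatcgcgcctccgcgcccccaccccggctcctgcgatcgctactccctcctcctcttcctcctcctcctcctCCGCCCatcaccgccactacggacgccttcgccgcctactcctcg
Gabra4, chr5:71658259-71658558, minus strand: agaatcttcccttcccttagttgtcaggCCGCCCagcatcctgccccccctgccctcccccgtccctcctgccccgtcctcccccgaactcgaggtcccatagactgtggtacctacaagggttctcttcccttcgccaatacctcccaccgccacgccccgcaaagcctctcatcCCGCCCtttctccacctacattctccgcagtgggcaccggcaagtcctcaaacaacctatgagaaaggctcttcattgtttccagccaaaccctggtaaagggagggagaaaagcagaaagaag
GGGCGG had 2 matches in each of the Gabra2 and Gabra4 windows and none in that of Gabra5, and 35.7% of all 32851 windows hold it. The G and C content was 70.0% for Gabra2, 58.7% for Gabra4 and 56.7% for Gabra5, against a median of 52.7% over all windows. A TATAAA match, held by 13.6% of all windows, was in none of these 3.

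Between 14259535 and 22037703 reads were assigned to genes per library. Mitochondrial genes held 0.058% to 41.9% of them and were left out, so that values are read counts scaled to the remaining total of the library (cpm), where 1 count stood for 0.0455 to 0.112 cpm. The labelled cell types were read from marker genes. Summed GABAergic markers (8 genes, Gad1 and Slc32a1 among them) were at 10630 to 13303 cpm in VGAT TRAP. In RBP4 TRAP they were at 344 to 882 cpm. Summed layer 5 markers (5 genes) were at 200 to 350 cpm and 681 to 1058 cpm in the same order. Taken singly, 3 of these 5 genes favoured RBP4 and 1 favoured VGAT at an adjusted p of at most 0.05. Within VGAT, TRAP was above WCH for 2 of the 5 and below it for 3 at this threshold. Markers of striatal projection neurons (7 genes, among them Drd1 and Penk) were also higher in VGAT TRAP, at 3493 to 5264 cpm against 130 to 306 cpm. In ST, Slc32a1 reached 49.9 cpm in the library labelled as replicate 4 of RBP4 ST, where the remaining RBP4 ST libraries had 10.9 to 19.7 cpm, against 23.3 to 51.3 cpm in VGAT ST. For Slc32a1, that RBP4 library goes against its label. Summed over all 8 GABAergic markers, the RBP4 ST libraries were at 562 to 1325 cpm. Those of VGAT ST were at 1212 to 5117 cpm, with a median of 2501 cpm. By this sum no RBP4 ST library reached the VGAT ST median. Because of Slc32a1, ST results are given with and without replicate 4 of RBP4 ST where it matters. ST libraries were also rich in glial RNA: the summed markers of oligodendrocytes (4 genes) were at 23797 to 41867 cpm over both lines, against 298 to 4464 cpm in TRAP, and those of astrocytes (5 genes) at 3052 to 18360 cpm against 131 to 1186 cpm. No marker gene of these lists was at 0 in any library.

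The comparison of TRAP between the lines asks how the ribosome-bound subunit mRNAs of layer 5 neurons differ from those of GABAergic neurons. Gabra5, Gabra2, Gabra3 and Gabrb1 were higher in RBP4 TRAP, Gabrd was higher in VGAT TRAP, and Gabra4 and Gabrb2 did not pass the test. Thus 5 of the 7 were called at an adjusted p of at most 0.05, against 28.0% of all 16898 genes tested. Of all genes tested 12.9% were called higher and 15.1% lower in RBP4, and the median log2 fold change of the 7 was 0.55 against -0.01 over all genes. All p-values in the text come from the quasi-likelihood test of edgeR, adjusted by the Benjamini-Hochberg method over all genes, and errors of log2 fold changes are standard errors.

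Gabra5 had the widest difference. It was at 212, 133, 148, 207 and 99.2 cpm in the RBP4 TRAP libraries, and at 46.7, 43.0, 64.1, 40.6 and 52.6 cpm in those of VGAT. Every RBP4 library lay above every VGAT library, and the means were 159.8 ± 48.7 and 49.4 ± 9.37 cpm (SD, n = 5). The log2 fold change was 1.69 ± 0.22, or 3.24-fold (adjusted p = 3.04e-07). The α5 subunit is best known from hippocampal and deep-layer pyramidal cells.

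Gabra2, which encodes an α subunit found at many synapses and at the axon initial segment, was at 57.7, 32.4, 41.1, 62.0 and 60.3 cpm in RBP4 TRAP. In VGAT TRAP it was at 17.8, 17.8, 31.9, 22.5 and 28.8 cpm, so that the groups came close without overlapping. The difference was 1.09 ± 0.20 on the log2 scale (adjusted p = 7.08e-05). Gabra3 was at 66.7 to 86.8 cpm in RBP4 and 43.3 to 57.9 cpm in VGAT, again without overlap, a log2 fold change of 0.55 ± 0.16 (adjusted p = 0.0108). Gabrb1 was at 15.0, 13.9, 18.1, 17.5 and 24.2 cpm against 10.4, 7.25, 15.9, 9.51 and 10.3 cpm. The third VGAT library reached into the RBP4 range, and the log2 fold change of Gabrb1 was 0.73 ± 0.22 (adjusted p = 0.0112, or 0.0559 without VGAT replicate 2).

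Gabrd went the other way. It was at 27.2, 27.2, 35.9, 24.5 and 32.0 cpm in RBP4 TRAP and at 51.1, 57.3, 65.9, 75.4 and 77.2 cpm in VGAT TRAP. The groups did not overlap, and the log2 fold change was -1.15 ± 0.21, which is 2.23-fold higher in VGAT (adjusted p = 7.45e-05). Striatal markers differed between the same libraries, as given above, while of 4 dentate granule markers 2 were higher and 2 lower in RBP4. Their part in the level of Gabrd was not tested.

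Gabra4, the usual partner of δ, was at 118 to 198 cpm in RBP4 TRAP and at 135 to 169.7 cpm in VGAT TRAP. Its log2 fold change was 0.04 ± 0.17 (adjusted p = 0.895). Gabra4 and Gabrd, whose products can share a receptor, thus had different values in this comparison, although the difference between the genes was not tested. Gabrb2 was at 22.4 to 52.6 and 26.2 to 39.0 cpm, with a log2 fold change of 0.25 ± 0.45 (adjusted p = 0.726). Its standard error was the widest of the 7.

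**Figure D1:**
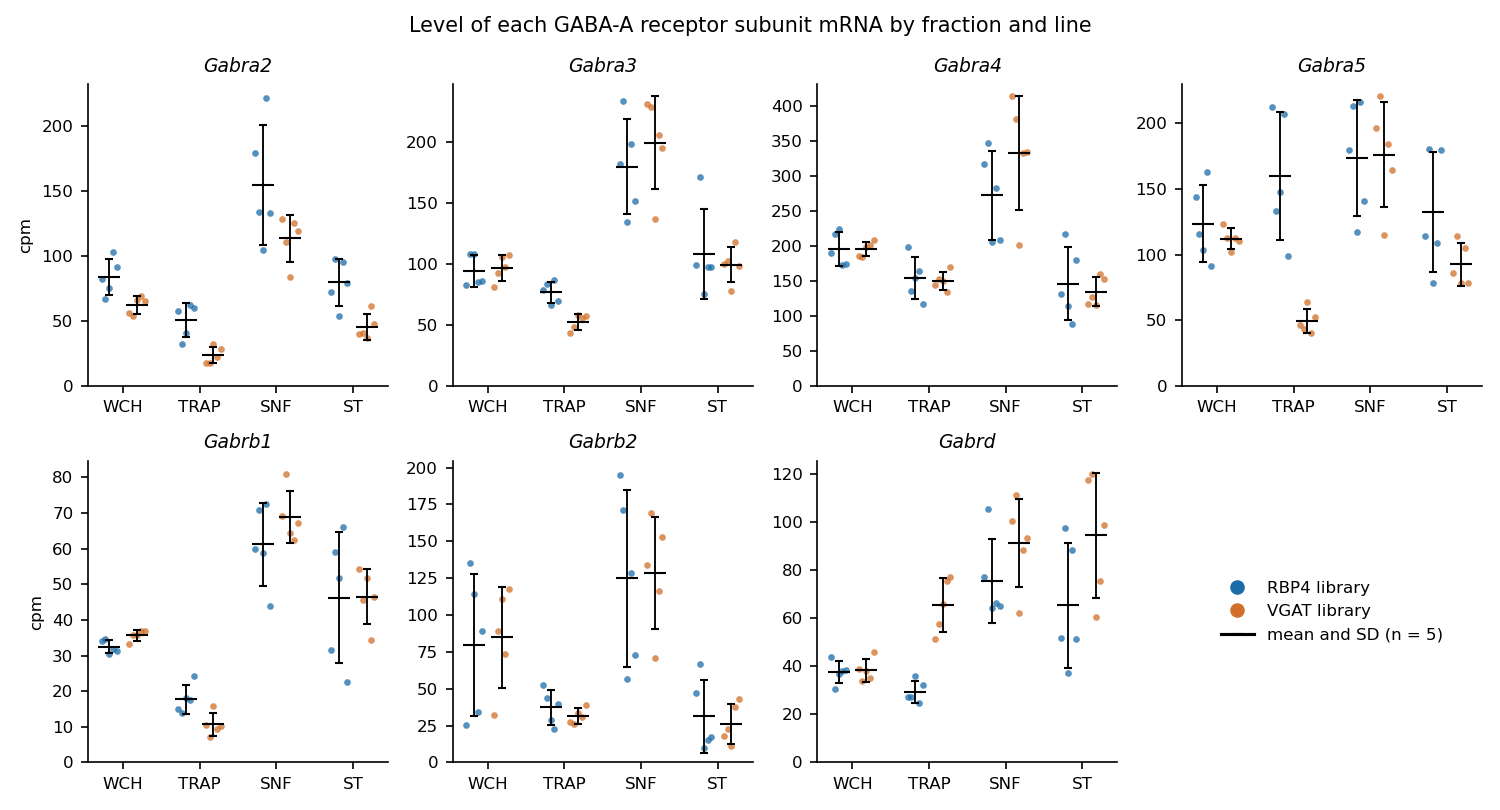
Level of each subunit mRNA in cpm (linear axis from 0) by fraction, with 1 point for each library (RBP4 blue, VGAT orange) and the mean and SD of 5 libraries in black. In TRAP the RBP4 points of Gabra2, Gabra3 and Gabra5 lie above all VGAT points and those of Gabrd below them, while in SNF the lines overlap for all 7. The share of all genes that separate or overlap in this way was not counted.

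In ST, which holds mRNA on tagged ribosomes of the synaptoneurosome fraction, none of the 7 was called between the lines, against 0.325% of all genes tested (10 higher and 45 lower in RBP4, or 15 and 36 with TMM factors, which moved the median of all genes by 0.10). At an unadjusted p under 0.05 there were 3, namely Gabra2, Gabra5 and Gabrd, and 1937 of all genes. Of the marker genes, 2 of 8 GABAergic and 3 of 7 striatal markers were called lower in RBP4 ST at an adjusted p of at most 0.05. Of the layer 5 markers 0 of 5 were called. Gabra2 was at 72.6, 97.9, 53.5, 95.7 and 79.0 cpm in RBP4 ST and at 39.6, 40.9, 36.9, 61.1 and 47.7 cpm in VGAT ST. Only the lowest RBP4 library was within the VGAT range. The log2 fold change was 0.82 ± 0.20 (adjusted p = 0.0586). This call depends on the scaling and test, with an adjusted p of 0.0134 with TMM factors, 5.03e-04 with DESeq2 and 0.0629 without RBP4 ST replicate 4.

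Gabra5 in ST was at 114, 180.4, 78.4, 109 and 179.6 cpm in RBP4 and at 86.4, 114, 78.7, 105 and 78.5 cpm in VGAT. The groups overlapped, with 2 RBP4 libraries above all others, and the log2 fold change was 0.52 ± 0.21 (adjusted p = 0.350). Gabrd was at 51.8, 97.4, 37.2, 88.2 and 51.4 cpm in RBP4 ST against 117, 120.0, 60.5, 75.2 and 98.6 cpm in VGAT ST. Its log2 fold change was -0.53 ± 0.21 (adjusted p = 0.317), and -0.67 with an adjusted p of 0.108 without RBP4 ST replicate 4. The remaining 4 subunits had log2 fold changes of -0.01 to 0.25, and that of Gabrb1 changed sign with TMM factors (0.09).

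Whether a line difference was of another size in ST than in TRAP was tested as an interaction, which called 10.8% of all genes. Of the 7 it called Gabra5, whose line difference was smaller in ST by 1.18 ± 0.30 on the log2 scale (adjusted p = 0.00789). Without RBP4 ST replicate 4 it was -1.12 (adjusted p = 0.0163). For the other 6 the change of the line difference was not called. It was -0.74 ± 0.30 for Gabrb1 (adjusted p = 0.120), which was called without RBP4 ST replicate 4 (-0.91, adjusted p = 0.0468), and -0.42 ± 0.23 for Gabra3 (adjusted p = 0.264), called without RBP4 replicate 2 (-0.62, adjusted p = 0.0361). Gabrd had 0.62 ± 0.29 (adjusted p = 0.189) and Gabra2 -0.27 ± 0.28 (adjusted p = 0.608). Glial marker sums rose from TRAP to ST in both lines, as given above. Line differences of cell type markers also changed. The interaction called 8 of 8 GABAergic and 7 of 7 striatal markers higher, and 3 of 5 layer 5 markers lower and 1 higher. The median line difference was -4.75 in TRAP and -0.82 in ST for GABAergic markers. It was -4.38 and -1.29 for striatal markers, and 2.19 and 0.31 for layer 5 markers. The part of these marker changes in the subunit values was not tested.

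**Figure D2:**
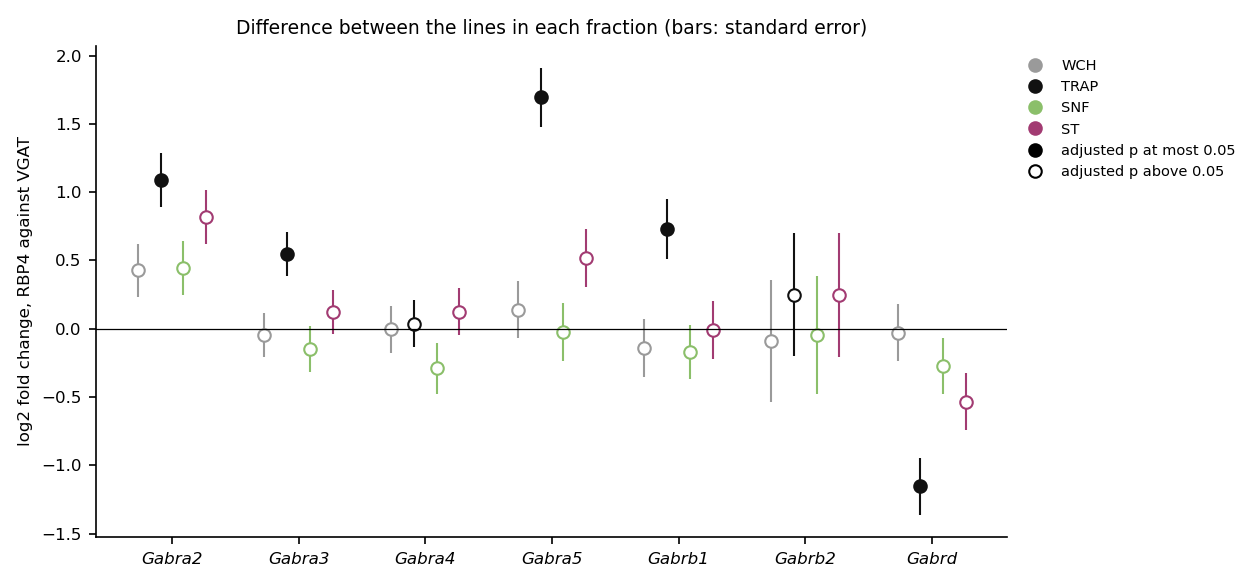
Log2 fold change of RBP4 against VGAT (vertical axis) for each subunit in WCH (grey), TRAP (black), SNF (green) and ST (purple), with standard errors. Filled points have an adjusted p of at most 0.05: these are the TRAP values of Gabra2, Gabra3, Gabra5, Gabrb1 and Gabrd, from 1.69 for Gabra5 to -1.15 for Gabrd.

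The unpurified fractions serve as the background of these comparisons, since they hold RNA of all cells in both lines. In WCH no subunit was called between the lines, against 0.0118% of all genes, and 1 of the 7 had an unadjusted p under 0.05 (426 of all genes). That was Gabra2, at 66.7 to 102.8 cpm in RBP4 and 53.8 to 69.2 cpm in VGAT, with a log2 fold change of 0.43 ± 0.19 (adjusted p = 0.9999). In SNF no subunit was called, against 0.0178% of all genes, and again 1 had an unadjusted p under 0.05 (778 of all genes). It was Gabra2 too, with 0.45 ± 0.20 (adjusted p = 0.999), so that in all 4 fractions its fitted value was above 0. The other 6 subunits had log2 fold changes of -0.14 to 0.14 in WCH and -0.29 to -0.02 in SNF.

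The difference of the line effect between TRAP and WCH, tested as an interaction that called 12.6% of all genes, was called for Gabra5 at 1.55 ± 0.30 (adjusted p = 3.66e-04) and for Gabrd at -1.13 ± 0.29 (adjusted p = 0.00802). For Gabra2 it was 0.66 ± 0.28 (adjusted p = 0.125). For Gabrb1 it was 0.87 ± 0.30 (adjusted p = 0.0578) and for Gabra3 0.59 ± 0.23 (adjusted p = 0.0942), and both were called with TMM factors (adjusted p = 0.0382 and 0.0425).

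Within each line, TRAP against WCH asks which mRNAs are enriched on the ribosomes of the targeted neurons over the whole tissue. In bulk samples such as these, fewer cells of a type and less RNA per cell cannot be told apart. In VGAT all 7 subunits were called, 6 lower and Gabrd higher in TRAP, against 62.8% of all 16990 genes tested. In RBP4 only Gabra2 and Gabrb1 were called, both lower, against 39.9% of 17043. The median of all genes was at -0.31 in VGAT and -0.34 in RBP4 on the log2 scale, and TMM factors moved it by 0.25 and 0.29, so that some values are also given relative to that median. With these factors the called genes were 47.4% higher in VGAT and 46.4% in RBP4, instead of 33.4% and 21.0%.

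Gabrd rose in VGAT TRAP over WCH, from 38.7, 33.8, 38.0, 34.96 and 45.7 cpm to the values given above. It was higher in TRAP in 5 of 5 pools and the groups did not overlap, with a log2 fold change of 0.77 ± 0.18 (adjusted p = 8.63e-04), or 1.08 relative to the median gene. In RBP4 it was below WCH in 5 of 5 pools and did not pass the test (log2 fold change -0.35 ± 0.22, adjusted p = 0.209). Gabra5 was the reverse: in VGAT it fell from 101.9 to 124 cpm in WCH to 40.6 to 64.1 cpm in TRAP, a log2 fold change of -1.18 ± 0.16 (adjusted p = 2.12e-06). In RBP4 TRAP it was above WCH in 5 of 5 pools, with 0.37 ± 0.25 (adjusted p = 0.244), or 0.71 relative to the median gene. With TMM factors this value was 0.67 and passed the test (adjusted p = 0.0362).

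Gabrb1 had the steepest fall in VGAT, from 33.2 to 36.9 cpm in WCH to 7.25 to 15.9 cpm in TRAP (log2 fold change -1.74 ± 0.16, adjusted p = 1.77e-08). In RBP4 it fell from 30.4 to 34.7 cpm to 13.9 to 24.2 cpm (-0.87 ± 0.23, adjusted p = 0.00512), and the groups did not overlap in either line. Gabra2 fell by 1.39 ± 0.17 in VGAT (adjusted p = 7.79e-07) and by 0.72 ± 0.22 in RBP4 (adjusted p = 0.0122). The RBP4 calls of both genes were lost with TMM factors, where the adjusted p was 0.0559 for Gabrb1 and 0.0827 for Gabra2. Gabra3 fell in VGAT by 0.88 ± 0.14 (adjusted p = 1.87e-05), and in RBP4 had -0.29 ± 0.20 (adjusted p = 0.241).

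Gabra4 in VGAT had a log2 fold change of -0.38 ± 0.15 (adjusted p = 0.0294), which is -0.07 relative to the median gene. This call was lost with TMM factors (adjusted p = 0.442) and without VGAT replicate 1, 2, 4 or 5 (adjusted p = 0.0565, 0.0607, 0.113 and 0.0600). Gabrb2 fell by 1.43 ± 0.32 in VGAT (adjusted p = 6.87e-04), and its RBP4 value of -1.09 ± 0.48 (adjusted p = 0.0753) passed the test with the pool as a block (adjusted p = 0.0317).

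**Figure D3:**
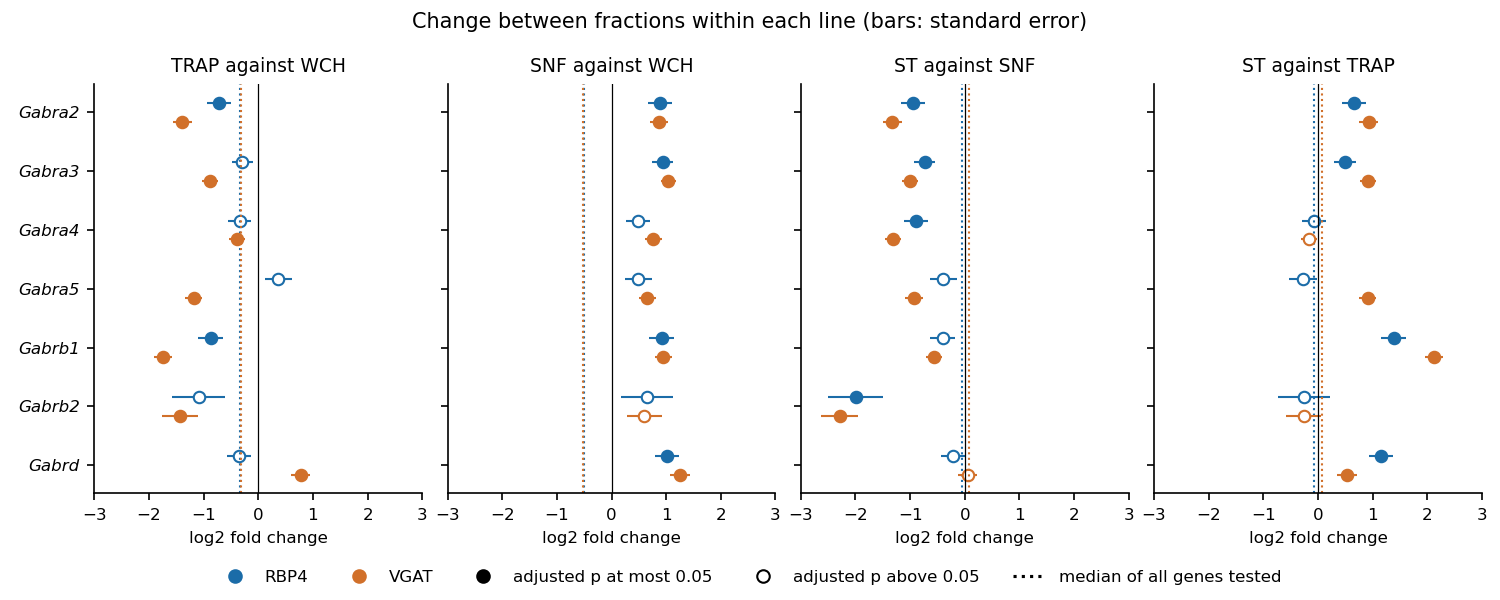
Log2 fold change (horizontal axis, bars for standard errors) of each subunit in the 4 comparisons within a line, RBP4 in blue and VGAT in orange, filled where the adjusted p is at most 0.05, with the median of all genes tested dotted. In SNF against WCH all points lie right of 0 and of the dotted medians, and in ST against SNF the points of Gabrb2 lie farthest left.

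SNF against WCH asks which mRNAs are enriched in the synaptic fraction of all cells. In VGAT 6 of the 7 subunits rose, all but Gabrb2, against 64.5% of all genes called in either direction and 19.3% called higher. In RBP4 Gabra2, Gabra3, Gabrb1 and Gabrd rose, 4 of 7, against 49.6% called in either direction and 13.4% called higher. None fell in either line. The median log2 fold change of the 7 was 0.87 in VGAT and 0.89 in RBP4, while that of all genes was -0.52 and -0.50. TMM factors moved the latter by 0.35 and 0.33 and turned the called genes from 29.9% to 46.9% higher in VGAT and from 27.1% to 51.9% in RBP4. With them all 7 subunits rose in VGAT, and all but Gabrb2 in RBP4.

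Gabrd had the highest fitted value. It rose from the WCH values above to 100.3, 111, 62.1, 88.2 and 93.4 cpm in VGAT SNF, with no overlap (log2 fold change 1.25 ± 0.18, adjusted p = 4.86e-06). In RBP4 it rose from 43.8, 30.7, 36.8, 37.9 and 38.4 cpm to 76.8, 105, 64.1, 66.4 and 64.8 cpm, also with no overlap (1.01 ± 0.22, adjusted p = 0.00103). Gabra3 rose by 1.04 ± 0.14 in VGAT (adjusted p = 2.31e-06) and 0.94 ± 0.20 in RBP4 (adjusted p = 7.20e-04), and Gabrb1 by 0.95 ± 0.15 and 0.92 ± 0.23 (adjusted p = 1.86e-05 and 0.00289). Gabra2 rose by 0.87 ± 0.17 and 0.89 ± 0.22 (adjusted p = 1.27e-04 and 0.00252). These 4 genes were higher in SNF in 5 of 5 pools of each line, with no overlap between the groups. The share of all genes with such a separation was not counted.

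Gabra4, the member with the most reads, reached 201 to 414 cpm in VGAT SNF from 185 to 208 cpm in WCH (0.77 ± 0.15, adjusted p = 1.25e-04), although the lowest SNF library lay within the WCH range. In RBP4 its value was 0.48 ± 0.22 (adjusted p = 0.0699). Gabra5 rose by 0.65 ± 0.16 in VGAT (adjusted p = 0.00106), and in RBP4 had 0.49 ± 0.25 (adjusted p = 0.108). Gabrb2 had 0.60 ± 0.32 in VGAT and 0.65 ± 0.48 in RBP4 (adjusted p = 0.101 and 0.266). SNF replicate 3 of each line had the highest mitochondrial share, 40.2% in RBP4 and 41.9% in VGAT against 11.2% to 19.4% in the other SNF libraries. It also had the lowest SNF value of its line for every subunit but Gabrb1. Without replicate 3 Gabra4 was called in RBP4 (0.62, adjusted p = 0.0479) and Gabrb2 in VGAT (0.87, adjusted p = 0.0156). The part of the mitochondrial share in these values was not tested. Astrocyte and oligodendrocyte markers rose in SNF as well (5 of 5 and 4 of 4 in each line), and their part in the subunit values was not tested.

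ST against SNF compares the captured ribosomes with the fraction they were captured from, and it shares the SNF libraries with the comparison just given. Few markers of the targeted cells were called here. In RBP4 0 of 5 layer 5 markers were called (median log2 fold change 0.48), and in VGAT 2 of 8 GABAergic markers rose and 0 fell (median 0.51). Of markers of other neurons, 3 of 8 GABAergic and 2 of 7 striatal markers fell in RBP4 (median -0.50 and -0.84). In VGAT 1 of 5 layer 5 markers rose and 0 fell (median 0.29). Median summed oligodendrocyte markers went from 13975 to 27787 cpm in RBP4 and from 14422 to 34168 cpm in VGAT. Of these 4 genes 1 rose in each line and 1 fell in VGAT, and their median log2 fold change was -0.56 in RBP4 and -0.61 in VGAT. In the same order it was -0.165 and -0.099 for astrocyte markers and -0.67 and -0.68 for those of oligodendrocyte precursors. For microglia markers it was -1.10 and -0.74, and for endothelial markers 2.85 and 1.86. The part of cell mixture in the subunit values was not tested. No subunit rose in either line. In VGAT 6 of the 7 fell, all but Gabrd, against 27.5% of all genes called and 11.2% called lower. In RBP4 Gabra2, Gabra3, Gabra4 and Gabrb2 fell, 4 of 7, against 11.1% called and 5.46% called lower. The median of the 7 was -1.01 in VGAT and -0.73 in RBP4, with 0.08 and -0.05 over all genes. In VGAT TMM factors moved the median of all genes by -0.10 and the share of called genes that were higher from 59.3% to 44.5%, and the same 6 subunits were called lower.

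Gabrb2 fell most in both lines. In VGAT it went from 134, 169.2, 70.7, 116 and 153 cpm in SNF to 17.8, 22.4, 10.9, 37.3 and 43.3 cpm in ST, with no overlap. The log2 fold change was -2.29 ± 0.33, or 4.89-fold lower (adjusted p = 1.77e-05). In RBP4 it went from 195, 171, 56.4, 128 and 73.0 cpm to 47.2, 67.0, 9.56, 15.1 and 17.2 cpm, lower in 5 of 5 pools although the groups overlapped (-1.998 ± 0.50, adjusted p = 0.0105). Gabra4 fell by 1.31 ± 0.15 in VGAT (adjusted p = 9.41e-07) and 0.90 ± 0.22 in RBP4 (adjusted p = 0.00918). Gabra2 fell by 1.33 ± 0.17 and 0.95 ± 0.22 (adjusted p = 4.01e-06 and 0.00641), and Gabra3 by 1.005 ± 0.14 and 0.73 ± 0.20 (adjusted p = 1.17e-05 and 0.0171).

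Without RBP4 replicate 1 only Gabrb2 was called of these 4 in RBP4, while Gabra2, Gabra3 and Gabra4 kept log2 fold changes of -0.86, -0.70 and -0.80 (adjusted p = 0.0762, 0.110 and 0.0865). Without replicate 4 only Gabra2 was called, and Gabra3, Gabra4 and Gabrb2 had -0.66, -0.75 and -1.81 (adjusted p = 0.121, 0.0835 and 0.0628). All 4 were called without RBP4 ST replicate 4 alone. Gabra5 and Gabrb1 fell in VGAT by 0.93 ± 0.16 and 0.56 ± 0.15 (adjusted p = 1.08e-04 and 0.00794). In RBP4 they had -0.39 ± 0.25 and -0.41 ± 0.23 (adjusted p = 0.346 and 0.279). Gabrd was not called in either line, with 0.05 ± 0.18 in VGAT (adjusted p = 0.871) and -0.21 ± 0.22 in RBP4 (adjusted p = 0.596). The sign of its VGAT value turned with TMM factors (-0.06).

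Local translation candidates in the study were genes with SNF above WCH and ST above SNF. Here each difference was taken at an unadjusted p under 0.05. None of the 7 subunits met this in either line, against 0.417% of genes in RBP4 (71 of 17043) and 1.29% in VGAT (220 of 16990). Somatic candidates, at the same threshold, were those with TRAP above WCH and SNF below WCH. None of the 7 was among them either, against 5.94% of genes in RBP4 (1013) and 13.2% in VGAT (2236). Gabrd in VGAT was above WCH in both TRAP and SNF, and so met 1 condition of each list.

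ST against TRAP compares the captured ribosomes of the synaptic fraction with those of the whole cells, and shares its libraries with the comparisons above. In VGAT Gabra2, Gabra3, Gabra5, Gabrb1 and Gabrd rose, 5 of 7, against 71.5% of all genes called and 37.5% called higher. In RBP4 Gabra2, Gabra3, Gabrb1 and Gabrd rose, 4 of 7, against 55.1% called and 26.0% called higher. Gabrb1 rose most, from 7.25 to 15.9 cpm in VGAT TRAP to 34.4 to 54.4 cpm in ST. This is a log2 fold change of 2.13 ± 0.16, or 4.36-fold (adjusted p = 3.04e-10), with no overlap. In RBP4 Gabrb1 was at 31.7, 59.0, 51.7, 66.0 and 22.6 cpm in ST, and only the last of these libraries was below its own pool's TRAP value (1.38 ± 0.24, adjusted p = 3.67e-05).

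Gabrd rose from TRAP to ST by 1.15 ± 0.22 in RBP4 (adjusted p = 1.49e-04), with no overlap, and by 0.53 ± 0.18 in VGAT (adjusted p = 0.0113). In VGAT its ST value was above TRAP in 3 of 5 pools and the groups overlapped. The VGAT call was lost without VGAT replicate 1 or 2 (adjusted p = 0.119 and 0.0949). Gabra2 rose by 0.93 ± 0.17 in VGAT and 0.65 ± 0.22 in RBP4 (adjusted p = 5.31e-05 and 0.0148), and Gabra3 by 0.92 ± 0.14 and 0.49 ± 0.20 (adjusted p = 5.92e-06 and 0.0361). Without RBP4 replicate 2 the RBP4 values of both were smaller, at 0.44 and 0.295, and their calls were lost (adjusted p = 0.124 and 0.180). That of Gabra3 was also lost without replicate 1, 4 or 5, where its log2 fold change was 0.53, 0.58 and 0.49 (adjusted p = 0.0761, 0.0531 and 0.0647). Gabra5 rose in VGAT by 0.91 ± 0.16 (adjusted p = 2.88e-05), while in RBP4 it had -0.27 ± 0.25 (adjusted p = 0.367). Gabra4 and Gabrb2 were not called in either line, with -0.16 ± 0.15 and -0.26 ± 0.32 in VGAT and -0.08 ± 0.22 and -0.26 ± 0.48 in RBP4. Glial markers rose in the same comparison, by a median log2 fold change of 3.72 for oligodendrocyte and 3.82 for astrocyte markers in VGAT, and 3.44 and 3.79 in RBP4. Their part in the subunit values was not tested.

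To compare the genes with each other, levels were taken per kb of exon (cpm per kb). The paper reports that its libraries were primed at the 3′ end and that reads are strongly biased towards it. Division by the full exonic length may therefore place long genes too low. The 3′ ends of Gabra2 and Gabrb1 reach 3460 and 10648 bases farther in GENCODE M21 than in the files. Reads there would not be counted, so the cpm of these 2 genes may also be too low. The orders between genes and the shares below carry these limits, which were not tested. In WCH of both lines Gabra4 was first, at 47.4 ± 5.89 in RBP4 and 47.5 ± 2.51 in VGAT, followed by Gabra5 at 46.6 ± 11.1 and 42.3 ± 2.92. Gabra2 and Gabra3 came next, and Gabrb1 was last, at 10.5 ± 0.60 and 11.6 ± 0.49. In RBP4 the difference between Gabra4 and Gabra5 was within the spread between libraries. In VGAT the ranges of these genes overlapped, at 44.8 to 50.4 cpm per kb for Gabra4 and 38.4 to 46.6 for Gabra5. In TRAP the order parted: Gabra5 led in RBP4 at 60.2 ± 18.4 cpm per kb, ahead of Gabra4 at 37.4 ± 7.36, while in VGAT Gabra4 led at 36.4 ± 3.14, followed by Gabrd at 22.7 ± 3.92 and Gabra5 at 18.6 ± 3.53. The ranges of the last pair overlapped, at 17.8 to 26.8 cpm per kb for Gabrd and 15.3 to 24.2 for Gabra5.

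As a share of the summed cpm per kb of the 7 genes, Gabra5 made up 36.9% ± 5.70 of RBP4 TRAP and 17.0% ± 2.08 of VGAT TRAP (SD, n = 5). Gabrd made up 6.59% ± 1.79 and 20.7% ± 2.57, and Gabra4 23.3% ± 1.68 and 33.4% ± 3.22. In WCH Gabra5 had 24.6% and 23.8% and Gabrd 6.92% and 7.43%, while Gabra2 had 18.5% ± 3.37 in RBP4 and 14.5% ± 1.06 in VGAT. In ST Gabrd had 11.9% ± 3.09 in RBP4 and 19.9% ± 4.50 in VGAT, and Gabrb2 had 2.49% and 2.51%, its lowest shares. The sum itself was highest in SNF, at 308 ± 68.3 cpm per kb in RBP4 and 319.9 ± 62.6 in VGAT, and lowest in TRAP, at 160.4 ± 27.3 and 109.6 ± 12.8. A share moves with the other genes of the sum, so these values are a description of the mix and were not tested.

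**Figure D4:**
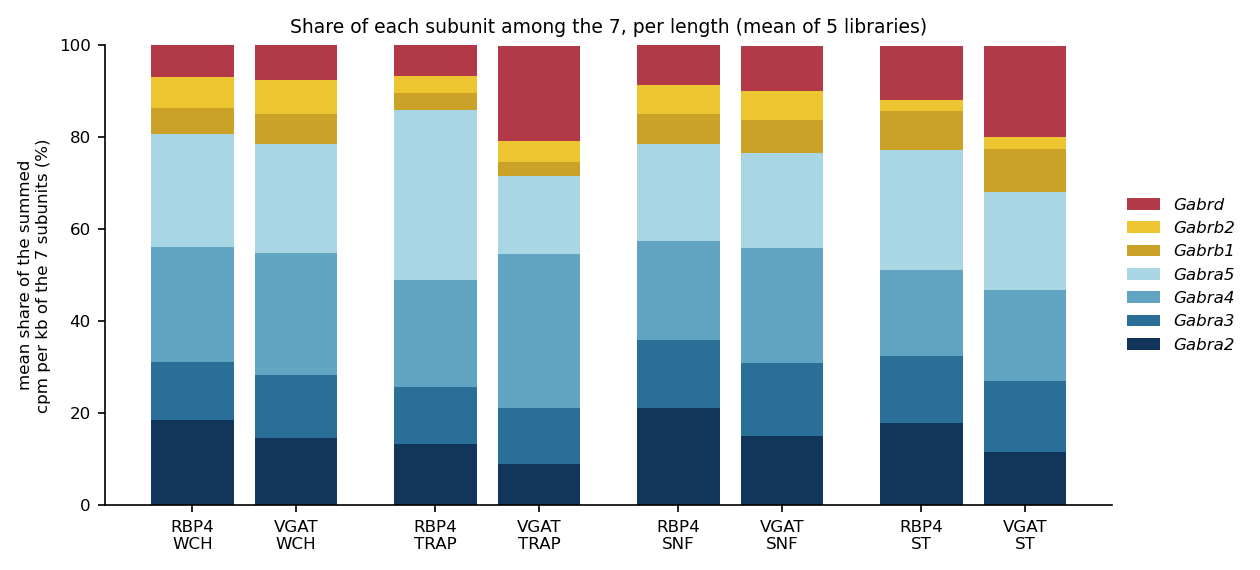
Mean share (%, vertical axis from 0 to 100) of each subunit in the summed cpm per kb of the 7 genes, for the 8 groups of 5 libraries. The TRAP bars differ most between the lines, with Gabra5 at 36.9% in RBP4 and 17.0% in VGAT and Gabrd at 6.59% and 20.7%.

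Among replicates Gabrb2 varied most. The ratio of its highest to its lowest library within a group was 1.49 to 7.01 over the 8 groups, with a median of 3.54, while the medians of the other 6 genes were 1.43 to 1.81. In WCH it was at 25.5, 135, 114, 34.5 and 89.0 cpm in the RBP4 pools and at 32.5, 89.5, 111, 73.8 and 117 cpm in the VGAT pools. The RBP4 pools lowest in WCH, 1 and 4, were not the lowest in SNF, where they were at 195 and 128 cpm. Gabrb1 in VGAT WCH, by contrast, stayed within 33.2 to 36.9 cpm.

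Over all 40 libraries, the log2(cpm + 1) values of Gabra2 and Gabra3 had a Pearson correlation of 0.86 and those of Gabra4 and Gabrb2 of 0.85, the highest of the 21 pairs. Those of Gabrd with the other 6 ran from 0.00 (Gabra5) to 0.48 (Gabra3). These correlations are given as a description, since the libraries share pools, fractions and lines. Among the 10791 genes that averaged 5 cpm or more, the gene most like Gabra5 was Pcsk5 (r = 0.93), the one most like Gabrd was Scg2 (0.94), and those most like Gabra3 were Lclat1, Cntn1 and Astn1 (0.97, 0.97 and 0.96). For Gabra5 the next were Ext1 and C1ql3 (both 0.93), and Crtac1 was also among those most like Gabrd (0.92). Gabra4 was most like Lrrtm2, Casd1 and Slc35a5 (0.94, 0.94 and 0.93), and Mdga1 and Tenm4 were among those most like Gabrb1 (both 0.95). For Gabrb2 the genes were Gpr137c, Entpd7 and Htr2a (0.93, 0.93 and 0.89), and Cxadr and Tapt1 were among those most like Gabra2 (0.93 and 0.92).

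The remaining 12 subunit genes of the family, of which 9 were tested, were looked at in the same fits. Between the lines in TRAP 1 was higher and 2 lower in RBP4, 3 of 9 against 28.0% of all genes tested, and none was called in ST, WCH or SNF. From WCH to SNF 5 of the 9 rose in each line and none fell, against 13.4% of all genes called higher in RBP4 and 19.3% in VGAT. From SNF to ST 4 fell in RBP4 and 5 in VGAT and none rose, against 5.46% and 11.2% of all genes called lower. Gabrg3, which encodes a γ subunit, was lower in RBP4 TRAP, with 13.3 to 25.5 cpm against 24.1 to 29.8 cpm (log2 fold change -0.74 ± 0.22, adjusted p = 0.00989). Its direction was that of Gabrd and not that of its neighbour on chromosome 7, Gabra5. Gabrr2, a ρ subunit gene named after its values were seen, had -2.59 ± 0.82 (adjusted p = 0.0179). This value rests on few reads, with 0 to 6 counts per library in RBP4 TRAP and 5 to 38 in VGAT TRAP. The levels were 0 to 0.34 cpm and 0.32 to 2.01 cpm. Gabrg1 had 0.15 ± 0.26 (adjusted p = 0.716).

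Of 19 genes for proteins that bind, anchor or traffic the receptor, 1 was called in TRAP between the lines, against 28.0% of all genes tested. It was Rdx, whose product radixin anchors α5 receptors to actin, and it was lower in RBP4 by 0.59 ± 0.21 on the log2 scale (log2 fold change -0.59, adjusted p = 0.0318), opposite to Gabra5. Next in that direction was Gabarap, a receptor-associated trafficking protein, with -0.45 ± 0.20 (adjusted p = 0.102). In the other direction the smallest p-values were those of Igsf9b, an adhesion molecule of inhibitory synapses (0.95 ± 0.38, adjusted p = 0.0640), and Shisa7, an auxiliary subunit (0.34 ± 0.18, adjusted p = 0.160). Gphn, the gene of the scaffold gephyrin, had -0.08 ± 0.14 (adjusted p = 0.741). From WCH to SNF the partners were split, with 7 higher and 8 lower in RBP4 and 8 and 9 in VGAT, against 13.4% higher and 36.1% lower of all genes in RBP4 and 19.3% and 45.2% in VGAT. Their median was 0.29 and 0.26 on the log2 scale. In ST, WCH and SNF none of the 19 was called between the lines, nor had any an unadjusted p under 0.05.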

How the data were processed

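RNA-seq files of 40 libraries were used, 5 replicates of 4 fractions in 2 lines, with groups and replicate numbers taken from the labels. The authors used STAR 2.0.4b for alignment and featureCounts 1.4.5 to count unique reads by gene, and the deposited counts are whole numbers with no normalization. The CPM values deposited by the authors divide each count by the library's total, and the deposited RPKM values divide these by exonic length. Both were recomputed from the counts within 4.07e-10 and 2.76e-10 and not used further. The build is not given in the sources used here, and 87.69% of 40254 genes share a start or end with GENCODE M21 (GRCm38).

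The 7 genes, the lists of other subunits, partners and markers, and the tests were chosen with earlier results of these data known. Genes of the mitochondrial chromosome, rRNA and tRNA (390) were left out, and remaining totals of 8950847 to 21976631 counts were the library sizes. The test was that of edgeR 4.0.16 under R 4.3.3 (glmQLFit, glmQLFTest), with group as the only variable, Benjamini-Hochberg adjustment and an adjusted p of at most 0.05. Comparisons within a line used its 20 libraries and genes that reached 0.5 cpm in 3 or more of them. Those between lines used 30 libraries (40 for SNF) and the same limit over TRAP and ST. The scripts were tested on simulated data. No libraries were identical. Alternatives were DESeq2 1.42.0, TMM and DESeq2 size factors, the likelihood ratio test, other filters, no genes left out, the pool as a block, and leaving out each replicate.

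Within a line, replicate numbers pair libraries, since the 4 fractions of a number came from 1 pool. As a check, deviations from group means over genes had a mean correlation of 0.301 for equal numbers in RBP4 TRAP and WCH (-0.074 for unequal), 0.429 in ST and SNF, and -0.044 in ST and TRAP. In VGAT these were 0.386, 0.482 and 0.055. The block is shown beside a result only where it changed a call. Named genes were the 7 members, other subunits of at least 1 cpm on average, the 2 partners with the smallest p in each direction in TRAP between the lines, and the 3 genes most like each member, and further names are marked in the text or stand as background. Promoter windows come from RefSeq. Some results are not reported here. Python 3.11.15 with pandas 2.3.3 and matplotlib 3.10.9 was used for tables and plots.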

Additional observations from a re-analysis of the deposited data

Results flagged for a closer look

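Among 56 sets of 5 libraries (7 genes in 8 groups), 2 had a library far from the rest, where chance alone gives about 1 in 20. Gabra3 was at 171 cpm in RBP4 ST replicate 2, above the 75.5 to 98.8 cpm of the other 4. Without that replicate the ST difference of Gabra3 between the lines turned from 0.12 to -0.10 on the log2 scale, not called either way. Gabrb1 was at 33.2 cpm in VGAT WCH replicate 1, below the 35.9 to 36.9 cpm of the others, a gap of less than 3 cpm.

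Effects that differed between the lines by the test of the difference itself were those of Gabra5 and Gabrd. For Gabra5, TRAP against WCH was 1.55 higher in RBP4 than in VGAT on the log2 scale, with TRAP above WCH in 5 of 5 RBP4 pools and in 0 of 5 VGAT pools, and ST against TRAP was lower by 1.18 (difference -1.18). For Gabrd, TRAP against WCH was lower in RBP4 than in VGAT (difference -1.13), with TRAP above WCH in 0 of 5 RBP4 pools and in 5 of 5 VGAT pools.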

How the results depend on the processing

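Of 1610 values of the 7 genes under an alternative, 1480 kept direction and side of the threshold, 36 passed it newly, 38 no longer passed it and 56 changed sign. In TRAP between the lines the same 5 genes were called in every alternative except without VGAT replicate 2, where Gabrb1 was lost. With no genes left out 10 calls were lost, all of them within a line. The count of called members moved by over 1.5 times in several comparisons. In RBP4 TRAP against WCH it went from 2 to 1 with either TMM factors, size factors from DESeq2 or no genes left out. With either set of factors the calls of Gabra2 and Gabrb1, both lower, were lost and Gabra5 was called higher. With no genes left out only that of Gabra2 was lost. In RBP4 ST against SNF the count went from 4 to 1 with no genes left out, and was 1 to 4 over replicates left out. In RBP4 ST against TRAP it went from 4 to 2 with no genes left out, and was 2 to 4 over replicates left out. For ST between the lines it went from 0 to 1 (Gabra2) with the likelihood ratio test, DESeq2, TMM factors, DESeq2's size factors or the replicate number as a block (log2 fold change 0.84), and was 0 to 1 over replicates left out. For ST less TRAP it was 1 to 2 over replicates left out, and for TRAP less WCH it was 4 with TMM factors and 2 to 4 over replicates left out. The causes were not tested.

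Sign changes, none of them in a called value, were as follows. With TMM factors, DESeq2 and its size factors, Gabra4 in RBP4 ST against TRAP was at 0.0090, 0.072 and 0.072, Gabrd in VGAT ST against SNF at -0.056, -0.10 and -0.10, and Gabrb1 in ST between the lines at 0.093, 0.13 and 0.13. With no genes left out, Gabrb1 in ST between the lines was at 0.0042 and Gabrd in RBP4 ST against SNF at 0.020. For Gabrb2 in ST less TRAP the likelihood ratio test gave -0.0029 and the block by pool -0.11. Over replicates left out, values spanned 0: Gabra4 in RBP4 ST against TRAP (-0.30 to 0.083) and Gabrd in VGAT ST against SNF (-0.0027 to 0.11); in TRAP between the lines Gabra4 (-0.068 to 0.12); in ST Gabra3 (-0.10 to 0.23), Gabra4 (-0.063 to 0.26), Gabrb1 (-0.18 to 0.16) and Gabrb2 (-0.24 to 0.50); in WCH Gabra4 (-0.057 to 0.039), Gabrb2 (-0.37 to 0.14) and Gabrd (-0.090 to 0.044); in SNF Gabra5 (-0.14 to 0.090) and Gabrb2 (-0.26 to 0.14); in ST less TRAP Gabra4 (-0.14 to 0.24) and Gabrb2 (-0.43 to 0.18); and in TRAP less WCH Gabra4 (-0.076 to 0.12) and Gabrb2 (-0.0425 to 0.58).

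With the pool as a block, 1 call within a line changed, that of Gabrb2 in RBP4 TRAP against WCH, and the counts of called members were 3 there (2 without it), 4 in SNF against WCH, ST against SNF and ST against TRAP of RBP4, 7, 6, 6 and 5 in VGAT, and 1 and 2 in the interactions. A number shared by both lines stands for different pools. The mean correlation between the lines for equal numbers was 0.182 in TRAP, 0.063 in ST, 0.25 in WCH and 0.245 in SNF. For unequal numbers it was -0.039, -0.013, -0.059 and -0.041. Libraries of equal number were thus more alike on average, which the main tests between the lines leave out and whose cause was not tested. With the number as a block, 5 members were called in TRAP and 1 in ST. At the lowest depth 1 count stood for 0.112 cpm, far below the lowest member value.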
